A study of Homo sapiens with 12 samples.

Results

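The collagen VI genes were followed through 12 RNA sequencing libraries of the established human breast cancer lines MDA-MB-231 and Hs-578T, which lack hormone receptor expression and have a mesenchymal phenotype. The genes were taken by symbol from a table of 32152 genes, of which 17665 are protein coding and 13737 of those were expressed highly enough to be tested. The members are 4 of these genes: COL6A1, COL6A2, COL6A3 and COL6A6. They were chosen by the RPKM of COL6A2, which was lowered most among the collagens in MDA-MB-231 cells carrying MEK5DD (RPKM, reads per kilobase of gene model, scaled to the size of the library), so values from that contrast describe the choice and carry no test. Each line was sequenced as parental controls, as cells labelled ERK5-ko and as cells labelled MEK5DD, with 2 libraries per group. ERK5-ko cells were made with CRISPR/Cas9 guides against MAPK7, the gene of the kinase ERK5, and were grown from single cells, and the MDA-MB-231 knockout line is 1 surviving clone. The name MEK5DD stands for MEK5, the kinase that phosphorylates ERK5, in a constitutively active form. The parental, ERK5-ko and MEK5DD libraries carried the passage labels 29 and 30, 7 and 8, and 10 and 11 in MDA-MB-231 cells. In Hs-578T cells the labels were 83 and 84 in parental controls and 8 and 9 in both other groups, so passage and genotype cannot be told apart in any comparison to parental controls. The numbers follow a p in the labels and are read here as passages. The 2 libraries of a group are then neighboring passages of 1 line, so p-values measure the spread between these and not between independently derived lines.

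Collagen VI is a microfibrillar collagen of the pericellular and interstitial matrix. Its α1 and α2 chains, from COL6A1 and COL6A2, associate with a long α3 chain, from COL6A3, into a triple-helical monomer that is assembled into dimers and tetramers in the cell and into beaded microfibrils outside it. The α6 chain from COL6A6 is an α3-like chain that can take the place of α3. The C-terminal domain of α3 is cut off after secretion and its last fragment, endotrophin, is known as a signalling peptide in breast tumor stroma. Fibroblasts are the usual main source of collagen VI in tissue. In muscle, variants of the genes of the α1, α2 and α3 chains cause collagen VI-related myopathies.

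The read totals by which RPKM was scaled ranged from 20248162 to 27791195, of which 92.05% to 94.5% fell on the genes of the table. The libraries labelled ERK5-ko did not hold less MAPK7 RNA than parental controls: its mean was 13.8 RPKM in parental and 17.0 RPKM in ERK5-ko libraries of MDA-MB-231 cells, and 15.0 and 18.0 RPKM in those of Hs-578T cells. The RNA thus gives no check of the knockout, and every ERK5-ko library below is one so labelled. The study itself measured ERK5 protein by Western blot and reported it far lower in the knockout cells of both lines than in parental cells. MAP2K5, the gene of MEK5, had a mean RPKM of 186 in the MDA-MB-231 libraries labelled MEK5DD against 13.2 in parental controls, and of 22.5 against 15.8 in Hs-578T. ESR1 reached at most 7 reads and PGR at most 23 reads in any library, ERBB2 ranged from 27.8 to 56.9 RPKM and VIM from 1598 to 4067 RPKM. EPCAM was at 19.0 RPKM in parental MDA-MB-231 cells and at 0.0600 RPKM in parental Hs-578T cells. Of the endothelial markers, CDH5 had at most 1 read and VWF at most 7 reads in a library, while PECAM1 reached 6.48 RPKM in Hs-578T cells. Of the leukocyte markers, PTPRC had at most 13 reads in a library, while CD14 had up to 58 reads and ranged from 0.341 to 2.16 RPKM.

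In the coordinates of the table (GRCh38), COL6A1 (ENSG00000142156.14) lies on the plus strand of chromosome 21 from 45981737 to 46005050, and COL6A2 (ENSG00000142173.14) follows on the same strand from 46098097 to 46132849. The genes stand 93046 bases apart. COL6A3 (ENSG00000163359.15) lies on the minus strand of chromosome 2 from 237324003 to 237414375, and COL6A6 (ENSG00000206384.10) on the plus strand of chromosome 3 from 130560334 to 130678155. No other gene of the GENCODE 29 annotation overlaps any of the 4. Another α3-like gene, COL6A5, had at most 1 read in any library, and the pseudogenes COL6A4P1 and COL6A4P2 at most 2 reads, so they are not described further.

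COL6A2 is the gene on which the choice was made, so the region upstream of its start is shown. The set of RefSeq promoter windows used here covers 3 of the 4 genes (COL6A2, COL6A3 and COL6A6). The 250 bases before the RefSeq start of COL6A2 on the plus strand, chr21:46097862-46098111 in GRCh38.p14, read as follows, with a TATA box (TATAAA) and GC boxes (GGGCGG, or its reverse complement) in capitals.
COL6A2: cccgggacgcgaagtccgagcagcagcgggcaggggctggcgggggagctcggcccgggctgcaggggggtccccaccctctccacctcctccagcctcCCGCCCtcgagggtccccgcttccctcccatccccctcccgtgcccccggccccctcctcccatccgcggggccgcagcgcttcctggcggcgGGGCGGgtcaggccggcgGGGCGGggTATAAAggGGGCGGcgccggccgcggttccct
The window held 28 CG dinucleotides and 79.6% G and C, against medians of 11 and 58.0% over 27305 promoters of the same length. Its TATA box began 32 bases before the start, and it held 4 GC boxes. The window of COL6A6 held a TATA box too, 29 bases before its RefSeq start, with 2 GC boxes, 19 CG dinucleotides and 65.6% G and C. That window, chr3:130516927-130517176, lies upstream of the start of COL6A6 given above (130560334) and does not adjoin it. The window of COL6A3 held 3 CG dinucleotides, 56.0% G and C, and neither motif. With both strands searched and no overlap between the motifs required or excluded, TATAAA occurred in 11.1% and GGGCGG in 42.3% of all promoters. CCAAT (33.0% of all promoters), the AP-1 site TGANTCA (6.6%) and the MEF2 site (2.90%) were not found in the windows of COL6A2, COL6A3 or COL6A6. These matches describe the letters of the windows only.

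The levels differed between the lines by more than between any groups within Hs-578T cells. COL6A1 stood at 116 and 122 RPKM in the parental libraries of MDA-MB-231 cells and at 1374 and 1770 RPKM in those of Hs-578T cells. COL6A2, whose product pairs with that of COL6A1, stood at 54.1 and 54.5 RPKM in MDA-MB-231 and at 1184 and 1377 RPKM in Hs-578T parental controls. COL6A3 was low in MDA-MB-231 parental controls, at 3.77 and 3.297 RPKM, and stood at 723 and 1319 RPKM in Hs-578T parental controls. No Hs-578T library overlapped an MDA-MB-231 library for any of these 3 genes. On the scale of log2(RPKM + 0.5), on which every fold change below was fitted, the difference of Hs-578T from MDA-MB-231 parental controls was 3.71 ± 0.13 (SE, n = 2 per group) for COL6A1, 4.54 ± 0.12 for COL6A2 and 7.92 ± 0.22 for COL6A3. All 3 passed the test (limma, Benjamini-Hochberg adjusted p of 1.28e-10, 1.15e-11 and 2.73e-11), in a comparison in which 77.4% of all tested genes passed an adjusted p of 0.05 (31.3% higher and 46.0% lower) and 23.5% were called higher, with a fold above 1.5 besides. The MDA-MB-231 parental libraries of this comparison also served the contrast on which the genes were chosen.

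COL6A6 had 0 reads in the 4 parental and ERK5-ko libraries of MDA-MB-231 cells, and 1 and 2 reads in the 2 MEK5DD libraries. A count of 0 allows up to 3 reads, which corresponds to at most 0.0272 RPKM in the 4 libraries at 0. This limit does not cover the 2 MEK5DD libraries. In Hs-578T parental controls COL6A6 had 128 and 221 reads, or 1.15 and 2.19 RPKM. Their mean of 1.67 RPKM was at least 67.0-fold higher than the value of 3 reads per library in MDA-MB-231 parental controls. COL6A6 passed the filter on low values only through the Hs-578T libraries. The fit below takes its spread from all 12 libraries. COL6A6 hardly varied in the MDA-MB-231 libraries, which lowers the SE and p-values of its Hs-578T differences. Counting error is the only error these limits cover.

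**Figure D1:**
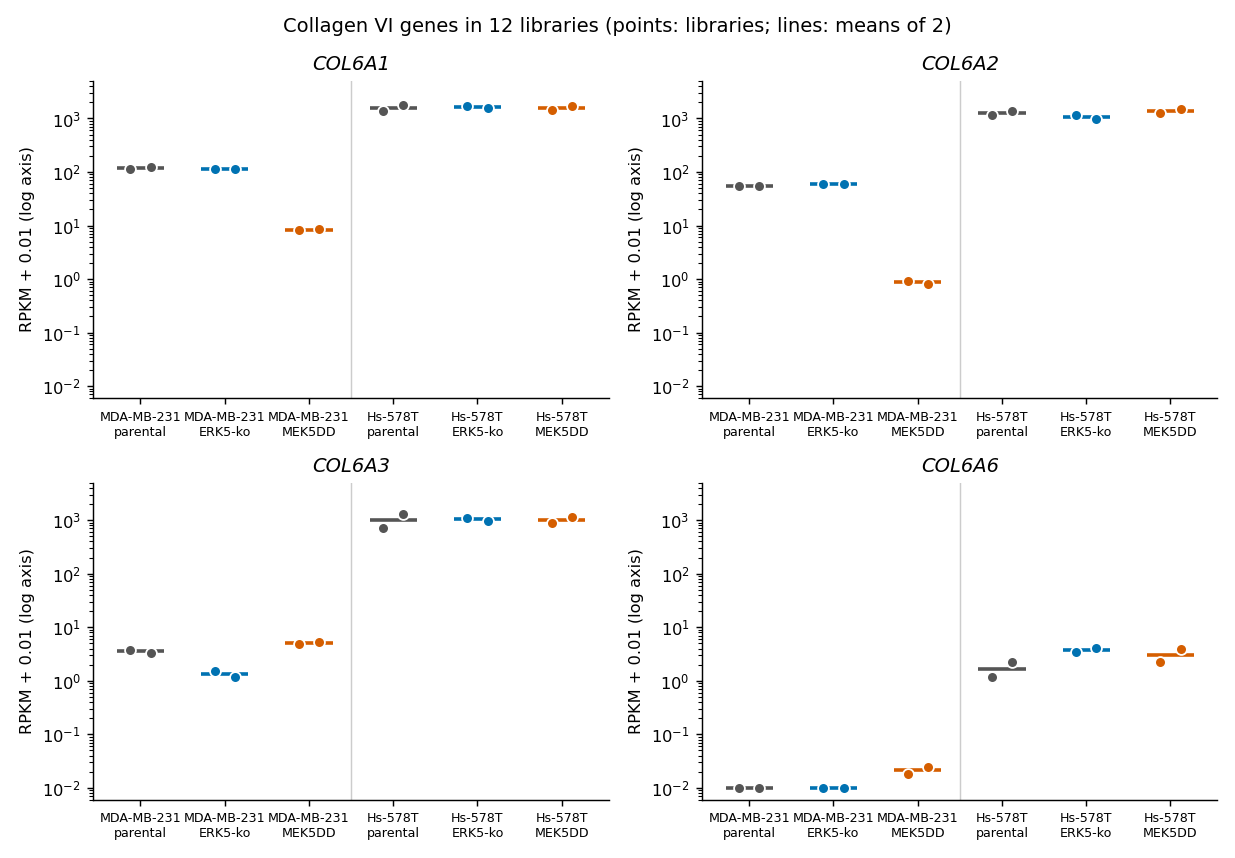
RPKM of the 4 collagen VI genes in each of 12 libraries, with 0.01 added, on a log axis; points are libraries, lines are means of 2, and the grey line parts the cell lines. COL6A1 and COL6A2 average 8.42 and 0.860 RPKM in MDA-MB-231 MEK5DD libraries, COL6A3 averages 5.13 RPKM there, and in Hs-578T cells COL6A6 averages 1.67 RPKM in parental controls, 3.78 in ERK5-ko and 3.05 in MEK5DD.

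Markers of fibroblasts, which make collagen VI in tissue, differed between the lines in the same direction. The summed RPKM of PDGFRA, PDGFRB, FAP, LUM, THY1 and POSTN was between 3824 and 3832 in Hs-578T and between 15.1 and 15.6 in MDA-MB-231 parental controls, and THY1 was at 0 reads in 4 libraries, all of MDA-MB-231 cells. All 6 genes were higher in each Hs-578T group than in any MDA-MB-231 group. In bulk RNA, fewer cells of a type and less RNA per cell cannot be told apart, and the part of these markers in the difference of collagen VI was not tested. Together the 4 genes took 0.851% to 1.26% of all reads in Hs-578T libraries. They took 0.0328% to 0.0344% in parental and ERK5-ko libraries of MDA-MB-231 cells and 0.00417% to 0.00440% in those labelled MEK5DD. Among protein-coding genes ranked by RPKM, COL6A1 was between place 24 and place 55 in every Hs-578T library, between 1098 and 1215 in MDA-MB-231 libraries without MEK5DD, and at 8451 and 8460 in the MEK5DD libraries.

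The contrast that led to the choice is described first. COL6A2 went from 54.1 and 54.5 RPKM (2685 and 3040 reads) in MDA-MB-231 parental controls to 0.911 and 0.808 RPKM (44 and 45 reads) in MEK5DD libraries, a ratio of means of 63.2. COL6A1 went from 116 and 122 RPKM to 8.41 and 8.42 RPKM, a ratio of 14.1. The libraries of the groups did not overlap for either gene. COL6A3 stood at 4.89 and 5.37 RPKM in the MEK5DD libraries, above both parental values of 3.77 and 3.297 RPKM. The differences in log2(RPKM + 0.5) were -5.33 for COL6A2, -3.74 for COL6A1 and 0.48 for COL6A3, in a contrast in which 6.31% of all tested genes had a fold below 0.5 and 7.74% a fold above 1.5. COL6A2 held place 2 and COL6A1 place 21 of 13737 genes ordered from the lowest difference.

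Of the 29 tested collagen genes, COL6A2 and COL6A1 led the order in that contrast, followed by COL1A2 at -2.88, COL18A1 at -1.85, COL7A1 at -1.61 and COL5A1 at -1.60. At the other end COL6A3 stood at place 27, below COL4A4 at 0.56 and COL8A1 at 1.37. COL6A2 stands first in this order by the rule of choice. COL6A3, at 0.48 ± 0.22 (SE), was close to COL12A1 at 0.38, and held place 12220 of the 13737 genes. COL18A1, the gene of a basement membrane collagen, is also on chromosome 21, with its start at -576.6 kb from that of COL6A1. It went from 80.6 and 77.8 RPKM to 20.96 and 22.14 RPKM. PCBP3, with its start at -338.0 kb, went from 4.71 and 4.60 RPKM to 1.69 and 1.75 RPKM. On the same side POFUT2 had a ratio of parental to MEK5DD means of 1.65 and ADARB1 of 0.814, and SLC19A1 was at 0.116 RPKM or less in these 4 libraries. The 8 tested genes after COL6A2 had ratios from 0.675 (C21orf58) to 1.51 (LSS). Of 132 tested genes of chromosome 21, 14.4% had a fold below 0.5 and the median difference was -0.196, against 6.31% and -0.00533 over all tested genes. These neighbors were named after their values were seen.

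**Figure D2:**
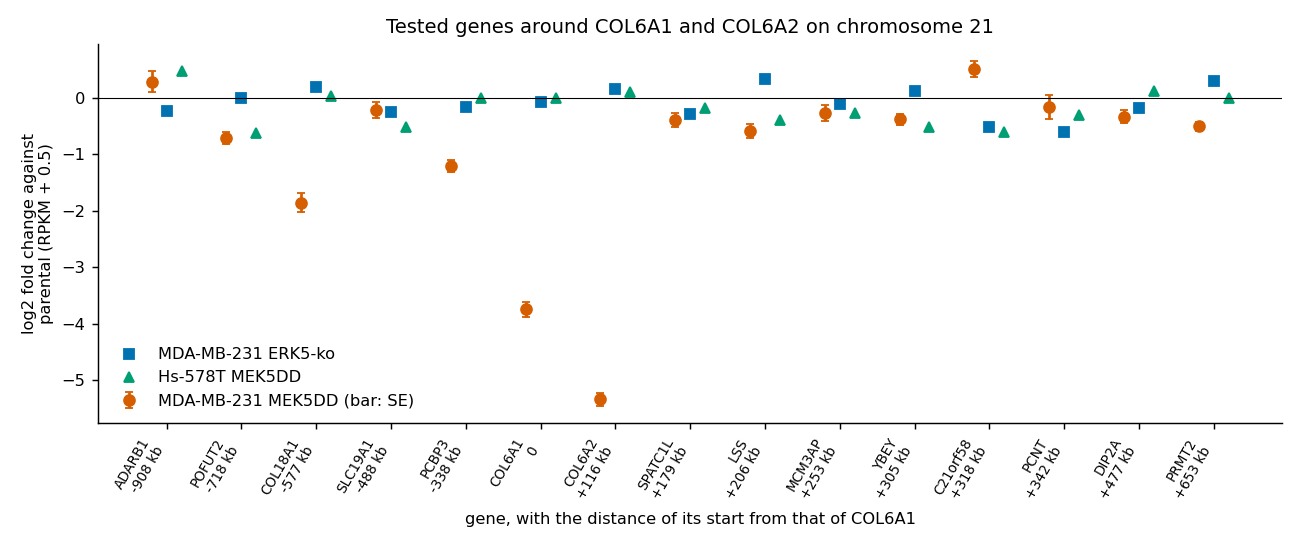
Differences in log2(RPKM + 0.5) against the parental controls of the same line for tested genes of chromosome 21 around COL6A1 and COL6A2, ordered by the distance of their starts from that of COL6A1 in kilobases; bars on the MDA-MB-231 MEK5DD points are SE. COL6A1 at -3.74 and COL6A2 at -5.33 lie lowest in MDA-MB-231 MEK5DD, with COL18A1 at -1.85 and PCBP3 at -1.22 on 1 side, while all points lie between -0.60 and 0.32 in MDA-MB-231-ERK5-ko and between -0.63 and 0.48 in Hs-578T MEK5DD.

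Other markers moved in the same MDA-MB-231 libraries. The summed RPKM of the 6 fibroblast genes was 2.28 to 2.30 in MEK5DD libraries, with PDGFRB at a mean of 1.96 RPKM against 14.6 RPKM in parental controls. PDGFRA and LUM were also lower, and FAP, THY1 and POSTN higher with means of 0.134 RPKM or less. EPCAM was at 7.44 RPKM against 19.0 RPKM and VIM at 3455 RPKM against 1680 RPKM. Their part in the lower values of COL6A1 and COL6A2 was not tested.

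In Hs-578T cells, the MEK5DD libraries stood near the parental controls. COL6A1 stood at 1410 and 1714 RPKM, COL6A2 at 1254 and 1503 RPKM and COL6A3 at 899 and 1140 RPKM, and all 3 ranges overlapped those of the parental controls. The differences in log2(RPKM + 0.5) were -0.004 (95% confidence interval -0.28 to 0.27) for COL6A1, 0.105 (-0.15 to 0.36) for COL6A2 and 0.05 (-0.44 to 0.54) for COL6A3. None of these passed the test (limma adjusted p of 0.993, 0.563 and 0.901). The spread behind these intervals is pooled over all 12 libraries. Over all genes, replicates differed more in these 2 Hs-578T groups (chi-square per degree of freedom of 30.7 in parental and 41.9 in MEK5DD). The other groups had 2.81 to 8.78. These intervals, and those below that use either group, may therefore be too narrow. The difference between the lines in the effect of MEK5DD was not tested, since it rests on the contrast that chose the genes. MAP2K5 RNA was raised less in Hs-578T than in MDA-MB-231 MEK5DD libraries, at 22.5 and 186 RPKM, and its part in these values was not tested.

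COL6A6 was the member that passed in that comparison. It stood at 2.25 and 3.85 RPKM (222 and 385 reads) in Hs-578T MEK5DD libraries against 1.15 and 2.19 RPKM in parental controls. Both MEK5DD values were above both parental values, the closest of them at 2.25 and 2.19 RPKM. The SE that follows is lowered by the MDA-MB-231 libraries of the fit, in which COL6A6 was near 0. The difference was 0.72 ± 0.23 (SE, n = 2 per group) with an adjusted p of 0.0427 by limma, so 1 of 4 collagen VI genes was called, where 23.4% of all tested genes passed (6.44% higher and 17.0% lower) and 2.90% were called higher by fold. This call was lost under 6 of 15 alternatives, with adjusted p from 0.00283 to 0.266 over them. Without parental replicate 1 the difference was 0.36 and without MEK5DD replicate 2 it was 0.39. The fibroblast sum was 4313 to 4636 RPKM in these MEK5DD libraries, above that of parental controls. Within it the means of PDGFRB (184 against 204 RPKM) and THY1 (1261 against 1420 RPKM) were lower, and those of PDGFRA, FAP, LUM and POSTN higher. The part of these genes in the value of COL6A6 was not tested.

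COL6A3 was the member that changed in MDA-MB-231-ERK5-ko cells. The libraries labelled ERK5-ko held 1.52 and 1.17 RPKM (174 and 148 reads) against 3.77 and 3.297 RPKM (473 and 465 reads) in parental controls, and did not overlap them. The difference was -1.13 ± 0.22 (SE, n = 2 per group), an adjusted p of 0.00533 by limma, which passes the fold limit of 0.5. COL6A1 stood at 113 and 112 RPKM and COL6A2 at 59.6 and 60.6 RPKM in the same libraries. Their differences were -0.08 (95% confidence interval -0.36 to 0.20) and 0.145 (-0.11 to 0.40), with adjusted p of 0.736 and 0.447. Of the 3 genes with reads, 1 was called, against 17.3% of all tested genes past the adjusted p (6.91% higher and 10.4% lower), with 2.80% called higher and 1.07% called lower by fold. Left out singly, parental replicate 1 gave an adjusted p of 0.0532 and ERK5-ko replicate 2 gave 0.0583, with 0.00201 to 0.0583 over the 15 alternatives. The summed RPKM of the 6 fibroblast genes was 12.3 to 12.6 in the ERK5-ko libraries against 15.1 to 15.6 in parental controls, without overlap. PDGFRB made up most of it, at means of 11.3 RPKM in ERK5-ko and 14.6 RPKM in parental libraries. FAP and THY1 were also lower in ERK5-ko, and PDGFRA, LUM and POSTN higher, all with means of 0.756 RPKM or less. The part of these genes in the lower COL6A3 was not tested.

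In Hs-578T-ERK5-ko cells COL6A3 did not follow. Its values were 1085 and 976 RPKM against 723 and 1319 RPKM in parental controls, which spread widely around them, and the difference was 0.08 (95% confidence interval -0.42 to 0.57) with an adjusted p of 0.814. Without parental replicate 2 it was 0.51, with an adjusted p of 0.0293 in a range of 0.0293 to 1 over the alternatives. The effect of ERK5-ko on COL6A3 differed between the lines, by -1.21 ± 0.32 (MDA-MB-231 minus Hs-578T), with an adjusted p of 0.0111 by limma. Of the 3 genes with reads in both lines it was the 1 that passed, where 39.8% of all tested genes did (18.3% higher and 21.5% lower, with 7.31% called lower by fold). Without MDA-MB-231-ERK5-ko replicate 2 the adjusted p was 0.0508, and without Hs-578T parental replicate 1 the difference was -0.78. COL6A2 differed by 0.40 ± 0.16 (95% confidence interval 0.04 to 0.76) with an adjusted p of 0.0728, which went below 0.05 with median-ratio scaling, in voom on reads and without Hs-578T parental replicate 1 or ERK5-ko replicate 1 (0.0311 to 0.257 over the alternatives).

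COL6A6 was higher in Hs-578T-ERK5-ko cells. It stood at 3.42 and 4.13 RPKM (438 and 488 reads) against 1.15 and 2.19 RPKM, with a ratio of means of 2.26 and no overlap. The SE that follows is lowered by the MDA-MB-231 libraries of the fit, in which COL6A6 was near 0. The difference was 1.02 ± 0.23 (SE, n = 2 per group), an adjusted p of 0.00463 by limma, and it was the 1 of 4 genes called, where 39.4% of all tested genes passed (19.7% higher and 19.7% lower), 9.35% were called higher by fold and 3.27% lower. Without ERK5-ko replicate 2 the adjusted p was 0.0538, and with the 6 Hs-578T libraries alone it was 0.0665, in a range from 0.000159 over the alternatives. COL6A1, at 1675 and 1581 RPKM, and COL6A2, at 1161 and 987 RPKM, differed from the parental controls by 0.06 (95% confidence interval -0.21 to 0.34) and -0.25 (-0.51 to 0.00), with adjusted p of 0.729 and 0.104. The summed RPKM of the fibroblast genes was 3209 to 3327 in these ERK5-ko libraries, below the 3824 to 3832 of parental controls. POSTN went the other way, with a mean of 1547 against 1453 RPKM, and the other genes of the sum were lower. The part of the fibroblast genes in these values was not tested.

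**Figure D3:**
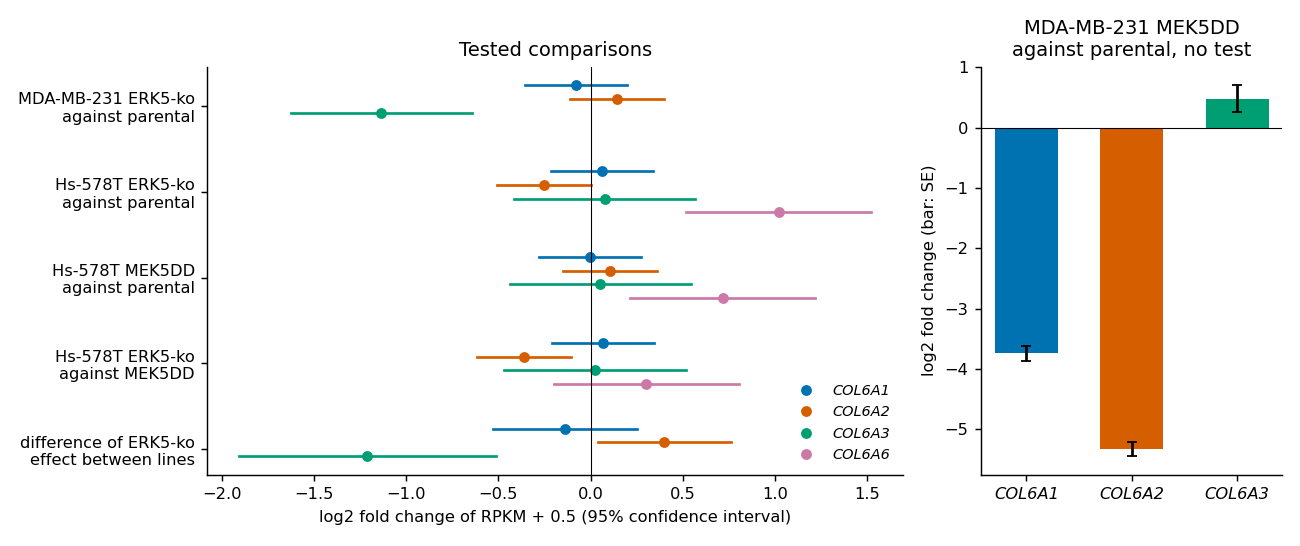
Left, differences in log2(RPKM + 0.5) of the collagen VI genes in each tested comparison, with 95% confidence intervals; right, the contrast that chose the genes, with SE and no test, on its own scale from 0. COL6A3 at -1.13 in MDA-MB-231-ERK5-ko and COL6A6 at 1.02 in Hs-578T-ERK5-ko stand away from 0, while COL6A1 lies between -0.14 and 0.07 in the 5 tested comparisons drawn.

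Hs-578T-ERK5-ko and Hs-578T MEK5DD libraries carried the same passage labels. Between them COL6A2 was lower in ERK5-ko, at 1161 and 987 RPKM against 1254 and 1503 RPKM with no overlap. The difference was -0.36 ± 0.12 (95% confidence interval -0.61 to -0.10), an adjusted p of 0.0234 by limma that did not reach the fold limit. It was the 1 of 4 genes that passed, where 50.0% of all tested genes did (30.7% higher and 19.2% lower, with 3.96% called lower by fold). The adjusted p was 0.196 without ERK5-ko replicate 2, 0.122 without MEK5DD replicate 2 and 0.483 after quantile normalization, in a range of 0.00525 to 0.483. COL6A1 differed by 0.07 (-0.21 to 0.34), COL6A3 by 0.02 (-0.47 to 0.52) and COL6A6 by 0.30 (-0.20 to 0.80), with adjusted p of 0.692, 0.945 and 0.295. Without MEK5DD replicate 2 the value of COL6A6 was 0.63, with an adjusted p of 0.0370 (0.0370 to 0.940 over the alternatives).

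Ordered by mean RPKM, each gene had all Hs-578T groups above all MDA-MB-231 groups. COL6A1 ran from 1628 ± 66.5 (SD, n = 2) in Hs-578T-ERK5-ko over 1572 ± 280 in parental controls and 1562 ± 215 in MEK5DD, which overlapped, to 119 ± 4.10 in MDA-MB-231 parental controls, 112 ± 0.566 in ERK5-ko and 8.42 ± 0.00849 in MEK5DD. COL6A2 ran from 1378 ± 176 in Hs-578T MEK5DD over 1280 ± 137 in parental controls, which overlapped, and 1074 ± 123 in ERK5-ko to 60.1 ± 0.651 in MDA-MB-231-ERK5-ko, 54.3 ± 0.262 in parental controls and 0.860 ± 0.0729 in MEK5DD. COL6A3 ran from 1030 ± 77.2 in Hs-578T-ERK5-ko over 1021 ± 422 in parental controls and 1020 ± 170 in MEK5DD, which overlapped, to 5.13 ± 0.339 in MDA-MB-231 MEK5DD, 3.53 ± 0.335 in parental controls and 1.34 ± 0.248 in ERK5-ko. Within MDA-MB-231 cells COL6A3 was thus highest in the group in which COL6A1 and COL6A2 were lowest. COL6A6 ran from 3.78 ± 0.501 in Hs-578T-ERK5-ko over 3.05 ± 1.13 in MEK5DD, which overlapped, to 1.67 ± 0.734 in parental controls.

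Because the chains assemble together, their RNA was also compared within each library. In parental controls of MDA-MB-231 cells the RPKM of COL6A2 was 0.467 and 0.447 of that of COL6A1, and in ERK5-ko libraries 0.528 and 0.540. In MEK5DD libraries it was 0.108 and 0.0960, the lowest of the 6 groups. The genes were chosen because COL6A2 fell most among collagens there, so a ratio below that of parental controls follows from the choice. In Hs-578T libraries the ratio of COL6A2 to COL6A1 was 0.862 and 0.778 in parental controls, 0.693 and 0.624 in ERK5-ko and 0.889 and 0.877 in MEK5DD, so that the ERK5-ko libraries lay below the others. The RPKM of COL6A3 relative to COL6A1 was 0.0325 and 0.0271 in MDA-MB-231 parental controls and 0.0135 and 0.0104 in ERK5-ko libraries. In MEK5DD libraries it was 0.581 and 0.638, inside the span of 0.526 to 0.745 of the Hs-578T libraries. The ratio in MDA-MB-231 MEK5DD cells was reached with COL6A1 at 8.41 and 8.42 RPKM, whereas COL6A1 was at 1374 RPKM or more in every Hs-578T library.

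Ratios between genes depend on the gene length behind RPKM. Whole reads recovered from the table gave lengths of 1789 bases for COL6A1, 2007 for COL6A2 and 5075 for COL6A3, close to the mean length of the transcripts of each gene (1802, 2024 and 5094 bases in GENCODE 29) and well under the longest coding transcripts (4238, 3461 and 10749 bases). On the longest coding transcripts, the mean ratio of COL6A2 to COL6A1 was 1.13 in parental controls of Hs-578T cells and 0.628 in those of MDA-MB-231, and 0.140 in MDA-MB-231 MEK5DD. The order of the 6 groups is the same on both lengths, since the length multiplies every library alike.

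**Figure D4:**
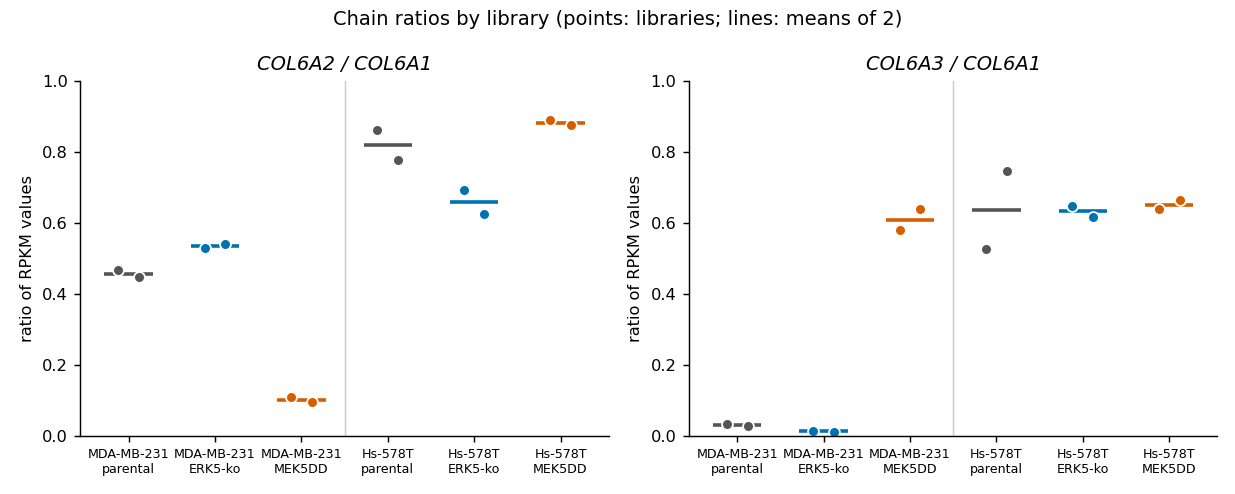
Ratio of the RPKM of COL6A2 (left) and COL6A3 (right) to that of COL6A1 in each library, on axes from 0 to 1; points are libraries and lines are means of 2. In MDA-MB-231 MEK5DD the left ratio is lowest, at 0.108 and 0.0960, and the right ratio, at 0.581 and 0.638, lies among the Hs-578T libraries. By the rule of choice, the left ratio there has to lie below that of parental controls.

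Across the 12 libraries, Pearson's r of log2(RPKM + 0.5) was 0.997 between COL6A1 and COL6A2, 0.854 between COL6A1 and COL6A3 and 0.964 between COL6A3 and COL6A6, with the 2 lines as separate clusters. Over the 6 MDA-MB-231 libraries r was 0.999 between COL6A1 and COL6A2 and -0.710 between COL6A1 and COL6A3, where the 2 MEK5DD libraries set both values. Over the 6 Hs-578T libraries r was 0.375 between COL6A1 and COL6A2 and 0.95 between COL6A1 and COL6A3. These are descriptions over libraries that share lines and groups, and carry no test. The genes most like COL6A1 over the 12 libraries were APCDD1L (r = 0.997), ADGRB2 (0.996) and ARHGEF25 (0.996). Those most like COL6A2 were ACAA2 (0.998), APCDD1L (0.996) and MDK (0.995), where MDK encodes the growth factor midkine. APCDD1L, for example, had a mean of 18.7 RPKM in MDA-MB-231 parental controls, 2.89 RPKM in MEK5DD and 88.2 RPKM in Hs-578T parental controls. COL6A3 was most like ADAM12 (0.998), GJA1 (0.997) and DDR2 (0.997), the genes of a metalloprotease, of connexin 43 and of a collagen receptor kinase. ADAM12 was at 0.798 RPKM in MDA-MB-231 parental controls, 0.0196 RPKM in ERK5-ko and 201 RPKM in Hs-578T parental controls.

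Cell surface proteins that bind collagen VI include the anthrax toxin receptors ANTXR1 and ANTXR2, the proteoglycan CSPG4 (NG2) and β1 integrins. All 9 receptor genes of the list were tested. In MDA-MB-231-ERK5-ko cells, where 6.91% of all tested genes rose and 10.4% fell, 0 rose and 3 fell, with a median difference of -0.116 against -0.0384 over all tested genes. In Hs-578T-ERK5-ko cells, where 19.7% of all tested genes rose and 19.7% fell, 2 rose and 2 fell (median -0.0823 against 0.0103). In Hs-578T MEK5DD cells, where 6.44% rose and 17.0% fell, 0 rose and 2 fell (median -0.131 against -0.0831). ANTXR2 moved in opposite directions: it fell from 64.8 to 41.8 RPKM in MDA-MB-231-ERK5-ko cells and rose from 75.5 to 121 RPKM in Hs-578T-ERK5-ko cells (differences of -0.63 and 0.68, adjusted p of 0.00168 and 0.000346 by limma). The difference between the lines was -1.31 ± 0.14, with an adjusted p of 4.53e-05. ITGA2, which pairs with ITGB1 as a collagen receptor, did the same, at -0.55 in the former line and 0.76 in the latter and -1.31 ± 0.19 between them (adjusted p of 0.000270). In MDA-MB-231 cells alone ITGA2 stayed past the adjusted p under 11 of 15 alternatives, with a highest adjusted p of 0.104, and ITGA10, the remaining receptor that fell there (-0.61), under 8, with a highest adjusted p of 0.234. ITGA10 fell to 2.19 RPKM from 6.08 RPKM in Hs-578T-ERK5-ko cells (-1.29 ± 0.17, adjusted p of 0.000124).

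ANTXR1 fell in both Hs-578T groups, by 0.42 in ERK5-ko and by 0.58 in MEK5DD (adjusted p of 0.0349 and 0.0139), and differed by -0.22 in MDA-MB-231-ERK5-ko cells with an adjusted p of 0.329. The Hs-578T values of ANTXR1 stayed past the adjusted p under 10 and 12 of 15 alternatives, with highest adjusted p of 0.220 and 0.117. ITGB1 was abundant in every group, with means from 1069 to 1737 RPKM, and passed in none of these 3 comparisons. CSPG4 was higher in ERK5-ko than in MEK5DD libraries of Hs-578T cells (0.81 ± 0.18, adjusted p of 0.00299), in a comparison in which 4 receptors rose and 1 fell, beside 30.7% and 19.2% of all tested genes. Between the parental controls, 4 of the 9 receptors were higher in Hs-578T cells and 2 lower, beside 31.3% and 46.0% of all tested genes. ITGA11, a collagen-binding integrin, stood at 560 RPKM in Hs-578T parental controls. In MDA-MB-231 parental controls it was at the floor, with a mean of 0.00735 RPKM below its SD of 0.0104 (n = 2). ITGA2 (42.8 against 5.39 RPKM) and ITGA3 (1121 against 280 RPKM) were higher in MDA-MB-231.

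Collagen chains are hydroxylated, glycosylated, folded and exported by dedicated enzymes and chaperones, and 14 of their genes were tested. In MDA-MB-231-ERK5-ko cells 0 rose and 3 fell, beside 6.91% and 10.4% of all tested genes (median -0.0485 against -0.0384). None of these 3, named after their values were seen, stayed past the adjusted p under every one of 15 alternatives: P4HA3 did under 5 (highest adjusted p of 0.256), P3H1 under 9 (0.194) and CRTAP under 11 (0.0825). In Hs-578T-ERK5-ko cells 1 rose and 7 fell, beside 19.7% and 19.7% (median -0.277 against 0.0103), and P4HA3, a prolyl hydroxylase subunit, was called lower at -1.13 ± 0.13 (adjusted p of 4.45e-05 by limma). In Hs-578T MEK5DD cells 2 rose and 5 fell, beside 6.44% and 17.0% (median -0.0627 against -0.0831), none past the fold limits. PLOD2, a lysyl hydroxylase, was higher in ERK5-ko than in MEK5DD libraries, at 262 and 123 RPKM (1.10 ± 0.12, adjusted p of 2.17e-05), in a comparison in which 3 rose and 6 fell, beside 30.7% and 19.2%. Between the parental controls 10 were higher in Hs-578T cells and 1 lower, beside 31.3% and 46.0%, as COL6A1, COL6A2 and COL6A3 were higher. Among them were PLOD2 (2.87 ± 0.12, adjusted p of 8.43e-10), P4HA3 (2.68 ± 0.13, adjusted p of 2.40e-09) and the collagen chaperone SERPINH1 (2.55 ± 0.09, adjusted p of 2.35e-10), and the glycosyltransferase gene COLGALT2 was lower (-1.11 ± 0.11, adjusted p of 3.18e-06).

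BMP1 and MMP14 can cut the C-terminal part of α3, MMP11 can cut the chain, and FURIN activates such proteases. In Hs-578T-ERK5-ko cells 1 of these 4 rose and 3 fell, beside 19.7% and 19.7% of all tested genes (median -0.799 against 0.0103). MMP11 went from 25.0 to 3.75 RPKM (-2.60 ± 0.14, adjusted p of 1.50e-07 by limma) and MMP14 from 407 to 184 RPKM (-1.14 ± 0.11, adjusted p of 1.40e-05), while COL6A3 stood at 1021 and 1030 RPKM. In MDA-MB-231-ERK5-ko cells, where COL6A3 fell, 1 rose and 1 fell, beside 6.91% and 10.4% (median -0.141 against -0.0384). These were BMP1 at 0.31, past the adjusted p under 10 of 15 alternatives, and MMP14 at -0.71, past it under all 15, and neither reached the fold limits. In Hs-578T MEK5DD cells, where 23.4% of all tested genes passed, 0 of 4 did by limma at an adjusted p under 0.05.

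**Figure D5:**
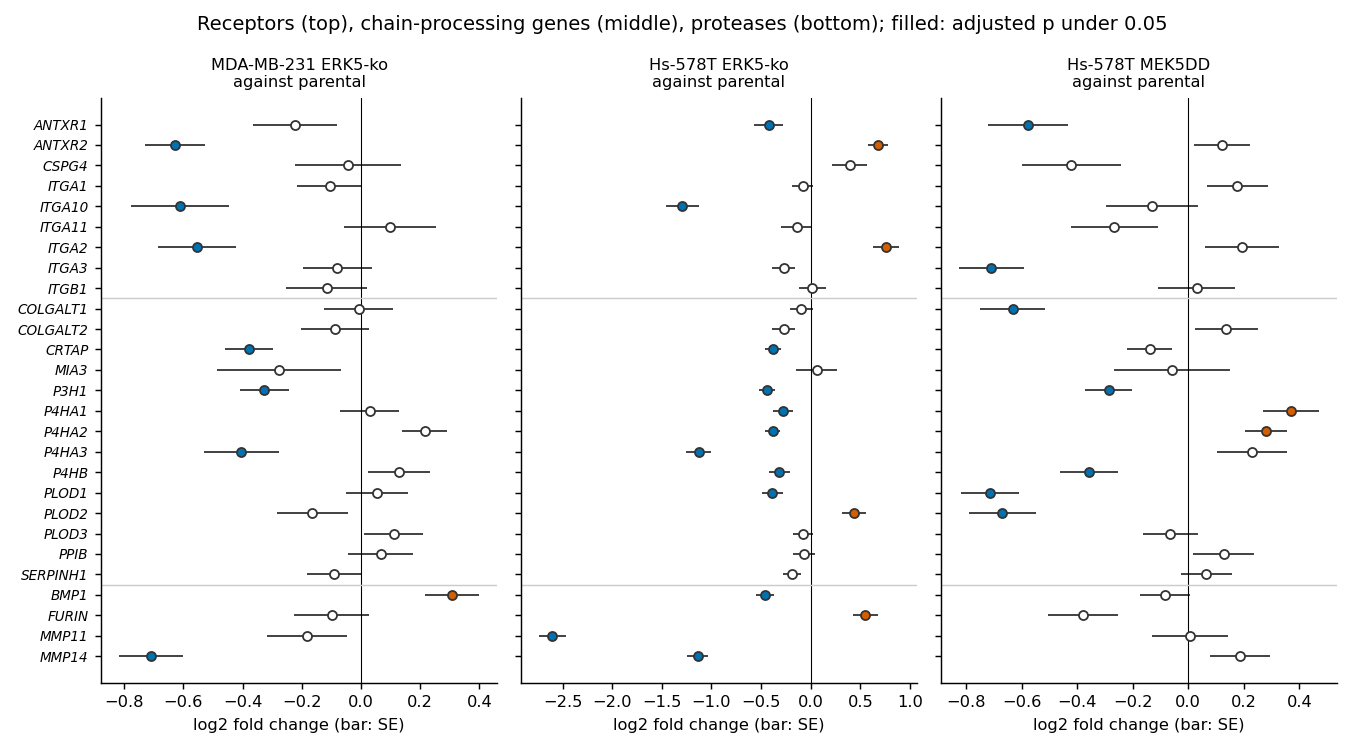
Differences in log2(RPKM + 0.5) with SE for receptors (top), chain-processing genes (middle) and proteases (bottom) in 3 tested comparisons, each on its own scale; filled points passed an adjusted p of 0.05, orange higher and blue lower. ANTXR2 and ITGA2 lie left of 0 in MDA-MB-231-ERK5-ko and right of 0 in Hs-578T-ERK5-ko, and MMP11 at -2.60 lies farthest from 0.

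Partners of collagen VI in the matrix gave 8 tested genes of 9. Biglycan (BGN) and decorin (DCN), small proteoglycans that bind collagen VI, stood at 420 and 396 RPKM in Hs-578T parental controls. In MDA-MB-231 parental controls they were at the floor, with means of 0.0111 and 0.0157 RPKM below their SDs of 0.0156 and 0.0222 (n = 2). DCN fell to 92.2 RPKM in Hs-578T-ERK5-ko cells (-2.10 ± 0.16, adjusted p of 2.42e-06 by limma), where 0 partners rose and 3 fell, beside 19.7% and 19.7% of all tested genes. COL1A2, of collagen I, was the partner that fell in MDA-MB-231-ERK5-ko cells, from 6.80 to 1.63 RPKM (-1.80 ± 0.32, adjusted p of 0.00325). In Hs-578T MEK5DD cells 1 partner rose and 0 fell, beside 6.44% and 17.0%. Collagen genes outside collagen VI gave 25 tested genes, and COL1A1, COL1A2, COL4A1 and COL4A2 among them are counted with the partners too. Of the 25, 1 rose and 6 fell in MDA-MB-231-ERK5-ko cells, where 17.3% of all tested genes passed (6.91% higher and 10.4% lower). In Hs-578T-ERK5-ko cells 4 rose and 9 fell, where 39.4% of all tested genes passed (19.7% higher and 19.7% lower). In Hs-578T MEK5DD cells 6 rose and 4 fell, where 23.4% passed (6.44% higher and 17.0% lower). COL17A1 (-1.26) and COL7A1 (-1.02) were called lower beside COL1A2 in MDA-MB-231-ERK5-ko cells, and both were called higher in Hs-578T-ERK5-ko cells (0.72 and 0.66), with tested differences between the lines of -1.98 and -1.68 (adjusted p of 1.15e-05 and 6.16e-05).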

How the data were processed

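RNA from cells at 70% confluence was sequenced as 12 libraries from a stranded mRNA kit. Per the labels, reads were processed by the authors with bcl2fastq, Trimmomatic 0.32, TopHat2 2.1.1, R 3.3.1 and DESeq2 1.12.4 on GRCh38, and the deposited table holds RPKM per gene. RPKM divides reads by gene length and library total, so levels depend on the length used. Every gene gave whole reads in every library (tolerance 0.002), with totals of 20248162 to 27791195. Genes that code for protein and reached an RPKM of 0.5 in 2 or more libraries entered limma 3.58.1 (R 4.3.3) on log2(RPKM + 0.5), with a variance trend, all 12 libraries in 1 fit and Benjamini-Hochberg adjustment within each of 6 comparisons. Such folds understate changes of low genes. A gene passed at an adjusted p under 0.05 and was called with a fold above 1.5 or below 0.5. An exact permutation test of 2 against 2 libraries cannot go below p = 0.333. Within each line, same-numbered libraries, which are the earlier or the later passage of each group, deviated from their group means together (r of 0.107 to 0.541 over 6 pairs of groups). The fit was tested on simulated data, and Python 3.11.15, pandas 2.3.3 and matplotlib 3.10.9 served the tables and plots. The collagen VI genes and all lists were chosen with earlier results of these data known. From the lists, text names were limited to the 3 largest called members in each direction, to ANTXR1, ANTXR2, CSPG4 and ITGB1, and to the 3 genes most like each of COL6A1, COL6A2 and COL6A3 (mean RPKM of at least 1). P3H1, CRTAP, BMP1, MMP14, ITGA2 and ITGA10 in MDA-MB-231-ERK5-ko cells and the chromosome 21 neighbors were added after their values were seen. Alternatives in pseudocount, filter, scaling, gene types, variance trend, replicate block, libraries fitted and voom on reads are given at the end.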

Additional observations from a re-analysis of the deposited data

Results flagged for a closer look

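The effect of ERK5-ko on COL6A3 differed between the lines by a test of the difference itself, -1.21 ± 0.32 (MDA-MB-231 minus Hs-578T, adjusted p of 0.0111 by limma, with 0.000189 to 0.0508 over 18 alternatives). COL6A3 was lower in both MDA-MB-231-ERK5-ko libraries than in both parental controls, and in Hs-578T cells the ERK5-ko values of 1085 and 976 RPKM lay inside the parental span of 723 to 1319 RPKM. Groups of 2 libraries are too small to search for a library that stands apart from its group.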

How the results depend on the processing

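Of 562 values under alternatives, 466 counted as unchanged. These values mix fold changes, counts of collagen VI genes and chain ratios. For tested fold changes, unchanged means the same direction and side of the adjusted p threshold. For untested fold changes it means the same direction and a shift smaller than the SD within groups. For ratios it means a shift smaller than that SD, and for counts an equal or near number. Where a value changed, the cause was not tested. With the 6 libraries of the line alone, COL6A6 kept its difference in Hs-578T-ERK5-ko (1.018, adjusted p of 0.0665) and in Hs-578T MEK5DD (0.716, adjusted p of 0.218) and COL6A2 its difference between these groups (-0.359, adjusted p of 0.177), and 0 genes passed in each of these 3 comparisons. COL6A6 in Hs-578T MEK5DD also missed the threshold, leaving 0 genes, with a pseudocount of 0.1 (0.849, adjusted p of 0.0630), with no filter (0.716, adjusted p of 0.0775) and with all gene types (0.716, adjusted p of 0.0651). COL6A2 between Hs-578T-ERK5-ko and MEK5DD was -0.117 after quantile normalization, where 0 genes passed. The fold of COL6A3 in MDA-MB-231-ERK5-ko missed the limit of 0.5 with a pseudocount of 1 and after quantile normalization (0 called). The difference of COL6A2 between the lines passed with median-ratio scaling (0.493) and voom (0.470), giving 2 genes past the threshold in each.

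Directions turned among values that had not passed. With median-ratio scaling and voom, COL6A1 was 0.086 and 0.095 in Hs-578T MEK5DD against parental controls, and between Hs-578T-ERK5-ko and MEK5DD COL6A1 was -0.054 and -0.043 and COL6A3 -0.096 and -0.085. After quantile normalization COL6A2 was -0.040 in Hs-578T MEK5DD. In MDA-MB-231 MEK5DD, under pseudocounts of 0.1 and 1, median-ratio scaling, quantile normalization and voom, COL6A1 was -3.804, -3.670, -3.699, -3.703 and -3.784 and COL6A2 -5.827, -4.895, -5.254, -5.074 and -5.939, and COL6A3 was 0.603 after quantile normalization. On longest coding transcripts, an alternative chosen after seeing the data, the ratio of COL6A2 to COL6A1 in parental, ERK5-ko and MEK5DD was 0.628, 0.734 and 0.140 in MDA-MB-231 and 1.13, 0.905 and 1.21 in Hs-578T, and that of COL6A3 to COL6A1 was 0.682 in MDA-MB-231 MEK5DD, 0.708 in Hs-578T-ERK5-ko and 0.729 in Hs-578T MEK5DD.

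Leaving out single libraries, with a lone library assumed to vary like the other groups, gave ranges. COL6A3 in MDA-MB-231-ERK5-ko ran from -1.271 to -0.996. In Hs-578T-ERK5-ko COL6A1 ran from -0.121 to 0.244, COL6A3 from -0.358 to 0.510 and COL6A6 from 0.666 to 1.370. In Hs-578T MEK5DD COL6A1 ran from -0.187 to 0.178, COL6A2 from -0.026 to 0.235, COL6A3 from -0.382 to 0.486 and COL6A6 from 0.363 to 1.068. Between Hs-578T-ERK5-ko and MEK5DD COL6A1 ran from -0.075 to 0.207, COL6A2 from -0.490 to -0.228, COL6A3 from -0.147 to 0.195 and COL6A6 from -0.029 to 0.633. The differences between the lines ran from -0.323 to 0.042 for COL6A1, from 0.282 to 0.516 for COL6A2 and from -1.644 to -0.776 for COL6A3. Counts of collagen VI genes past the adjusted p ran from 0 to 2 in Hs-578T-ERK5-ko and between the lines, and all other counts, called ones included, from 0 to 1 outside the comparison of parental controls.

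With a replicate block for each line COL6A3 was -1.134 in MDA-MB-231-ERK5-ko (adjusted p of 0.00201), and the block changed no call of a collagen VI gene in any comparison. Over all genes, fits of 1 line moved the numbers past the adjusted p from 2379 to 4065 in MDA-MB-231-ERK5-ko, from 5413 to 3043 in Hs-578T-ERK5-ko, from 3213 to 900 in Hs-578T MEK5DD and from 6866 to 4459 between the last 2 groups. Voom on reads gave 2591, 5591, 2649 and 6581. The higher share of calls went from 53.1% to 65.2% between parental controls under median-ratio scaling, which moved the median of all genes from -0.192 to 0.019, and from 66.1% to 77.7% in Hs-578T MEK5DD under quantile normalization. Of 109 calls of list genes, 96 stayed past the adjusted p under every alternative.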
